A study of Mus musculus with 22 samples.

Results

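The genes described here build the cilium. They are the 48 genes, of 20206 in all the tables, whose symbol starts with Dnah, Dnaic, Dnali, Ift, Bbs, Rsph or Tekt followed by a digit, plus Foxj1. The motile class, 26 genes, holds 11 Dnah, 2 Dnaic, 1 Dnali, 6 Rsph and 5 Tekt genes and Foxj1. The general class, 22 genes, holds 14 Ift and 8 Bbs genes. The rule itself uses symbols and no measured values.

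A cilium is a microtubule rod, the axoneme, that grows from a basal body at the cell surface. Nearly every cell type, osteoblasts included, can make a single primary cilium, which senses signals such as Hedgehog and does not beat. It is built and maintained by intraflagellar transport (IFT), the traffic of cargo along the axoneme, and the BBSome moves membrane proteins in and out of it. Motile cilia of airway, ependyma and oviduct, and the sperm tail, add dynein arms that make the axoneme bend, radial spokes that regulate the arms, and tektin filaments inside the microtubule doublets. Foxj1 is the forkhead transcription factor that switches on the motile programme, while RFX factors act on ciliary genes of both kinds.

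Messenger RNA was sequenced from mouse cells with the Col2.3GFP reporter, which makes cells of the osteoblast lineage fluoresce green from part of a type I collagen promoter. The groups were sorted ESC-OB GFP+ (GFP-positive cells sorted from embryonic stem cell-derived osteoblast cultures, 3 samples), ESC-OB (such cultures unsorted, 3), ESC (undifferentiated embryonic stem cells, 3), iPSC-OB (osteoblast cultures from induced pluripotent stem cells, 2) and iPSC (undifferentiated, 2). Differentiation went through 6-day embryoid bodies given retinoic acid (0.1 µM) between days 3 and 5, and all osteoblast cultures had 35 to 40 days of differentiation. Passages were 20 to 30 for ESC and ESC-OB and 10 to 20 for iPSC and iPSC-OB, with none given for the sorted cells. The sources used here do not say whether replicates were separate cultures, so the p-values cover only the spread between these samples, which may be technical. They also do not say which samples grew on feeders. The calvarial and bone-derived groups of the series were not analysed here.

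All values come from the authors' 3 deposited tables, which hold comparisons and no values per sample. Each log2 change with its standard error (written ± below) and adjusted p is the authors' DESeq2 result, and a gene rose or fell where the adjusted p was under 0.05. Fold changes are shrunken towards 0, which understates low-count genes, in the iPSC table most of all. The direction is not stated in the files and was read from pluripotency genes, so that a positive change is higher in the differentiated cells. Group levels in counts per 1e+06 reads (CPM) were estimated from the authors' base means and fold changes and carry no error of their own. Size factors read from the base means were scaled to M reads by the mean total of the fit, so they give relative depth and not each library's own read total. That total includes the ribosomal RNA gene Rn45s, whose log2 change in sorted GFP+ was -4.13 ± 0.31. The scaled depths per library were 22.4 to 30.1 (sorted GFP+), 6.72 to 11.5 (ESC-OB), 4.49 to 19.5 (ESC), 10.1 to 17.7 (iPSC-OB) and 10.4 to 13.0 (iPSC, for which 3 libraries were found where the labels give 2). The level of 3 reads over a group, taken as the limit of detection for counting error only, came to 0.0406, 0.113, 0.108, 0.114 and 0.0898 CPM in the same order. In the authors' tables, 9 of 10 osteoblast markers rose in sorted GFP+, 7 in ESC-OB and 8 in iPSC-OB, but 1, Alpl, fell in each. All 8 pluripotency markers fell in each. Of all genes, 39.1%, 38.6% and 26.1% rose and 32.4%, 31.0% and 23.1% fell in the same order. Col1a1 stood at 5418 CPM in sorted GFP+ and 2559 in ESC-OB, against 11.0 in ESC, and at 1258 CPM in iPSC-OB against 410 in iPSC, while Bglap (osteocalcin) was only 0.509, 0.821 and 1.14 CPM in sorted GFP+, ESC-OB and iPSC-OB. RNA was taken from whole cell populations, so more cells of a type and more RNA per cell cannot be told apart.

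Promoter stretches of the members are shown first, because RFX and forkhead factors are the known regulators of these genes. RefSeq promoter windows (GRCm38.p6, 250 bases before to 50 after each start) were at hand for 42 of the 48 members. There was none for Foxj1, Ift122, Ift80, Ift81, Rsph1 and Rsph4a. They were searched on both strands for the full RFX site or X-box (GTTNCC, any 2 bases, GGNAAC), for its core GTTGCCA, and for the forkhead core TGTTTAC. The windows with a match are given 5′ to 3′ on the gene's strand, with the matched letters in capitals.
Tekt1, RFX core, chr11:72361881-72361907 (-): cgtccgtccgGTTGCCAtagagaccgc
Dnah7b, RFX core, chr1:46066680-46066706 (+): caggagcacaGTTGCCAcccaccctta
Dnah10, RFX core, chr5:124725085-124725111 (+): tagggtcgccGTTGCCAcggacgcccg
Bbs1, RFX core, chr19:4906610-4906636 (-): ggctgagctgGTTGCCAaggcgacgcc
Ift27, RFX core, chr15:78174074-78174100 (-): gttgatgatgGTTGCCAggagcctgtt
Ift88, RFX core read on the other strand, chr14:57424081-57424107 (+): gagtcgcgccTGGCAACggctgggcgt
Bbs7, X-box, chr3:36613487-36613520 (-): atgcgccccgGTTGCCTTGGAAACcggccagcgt
Dnah17, forkhead core, chr11:118129404-118129430 (-): aggggtacccTGTTTACctgatgaccc
Tekt3, forkhead core, chr11:63061475-63061501 (+): atattatttgTGTTTACtgaaaactta

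The RFX core was in the windows of 6 of 42 member genes (14.3%), 3 motile and 3 general, against 5.02% of all 27025 genes with a window. The X-box in the spelling searched was in 1 member window (2.38%, against 0.529% of all genes) and the forkhead core in 2 (4.76%, against 4.05%). Most RFX core matches lay close to the start, at 15 bases before it in Tekt1, 9 before it in Ift27, and 1, 10 and 20 bases after it in Bbs1, Dnah10 and Ift88. The genes with a match did not move one way in the authors' tables: Tekt1, Dnah7b and Bbs1 rose in both ESC comparisons, Dnah10 and Dnah17 fell in both, and Bbs7 passed the test in none of the 3. In the same tables Ift27 rose in sorted GFP+ alone, Ift88 fell in sorted GFP+ and iPSC-OB, and Tekt3 had no adjusted p. The 250 bases upstream of Tekt1, which rose, and of Bbs7, which passed no test, are printed whole, again with the matches in capitals.
Tekt1, chr11:72361883-72362132 (-): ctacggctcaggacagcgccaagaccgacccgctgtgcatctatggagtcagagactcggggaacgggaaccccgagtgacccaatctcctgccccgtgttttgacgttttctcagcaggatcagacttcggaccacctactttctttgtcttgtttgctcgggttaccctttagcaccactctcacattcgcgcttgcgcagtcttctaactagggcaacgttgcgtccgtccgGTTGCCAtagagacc
Bbs7, chr3:36613390-36613639 (-): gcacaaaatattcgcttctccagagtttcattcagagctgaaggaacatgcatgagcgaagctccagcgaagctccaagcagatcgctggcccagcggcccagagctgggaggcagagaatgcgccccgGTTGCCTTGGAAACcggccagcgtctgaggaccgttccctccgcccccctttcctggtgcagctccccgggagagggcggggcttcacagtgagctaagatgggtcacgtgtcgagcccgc

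Sorted ESC-OB GFP+ against ESC asks which genes differ between cells sorted on the osteoblast reporter and the stem cells they came from. Motile-cilium genes were mostly higher in the sorted cells: 16 rose and 3 fell out of 25 tested, where 39.1% of all genes rose and 32.4% fell. The median log2 change of all 26 motile genes was 1.99, against 0.33 over all 19781 genes, with or without an adjusted p. The general class was split, with 10 of 22 rising, 9 falling and a median of 0.17. Summed over the class, motile genes came to 166 CPM in sorted GFP+ against 99.5 in ESC, and without Dnah8, which alone gives 56.2 CPM of the ESC sum, to 164 against 43.2. Ift and Bbs genes came to 472 CPM in sorted GFP+ against 457 in ESC. Re-centred on the median gene, which shifts every log2 change by 0.21, 7 general genes rose and 10 fell, where 35.7% of all genes rose and 35.9% fell.

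ESC-OB against ESC puts the same question to the whole culture, using the same ESC libraries. In the authors' deposited table, 15 of 25 motile genes tested rose and 3 fell, with a median of 1.92 over all 26, where 38.6% of all genes rose and 31.0% fell and the median over all genes was 0.22. Of the 22 general genes 7 rose and 6 fell, with a median of 0.05. Re-centred on the median gene (a shift of 0.19), 6 rose and 10 fell, where 35.4% of all genes rose and 34.6% fell. Class sums were 198 CPM in ESC-OB against 99.5 in ESC for motile genes, and 467 against 457 for general ones.

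iPSC-OB against iPSC gave fewer calls. Among the 24 motile genes tested, 5 rose and 3 fell, where 26.1% of all genes rose and 23.1% fell, so the share of motile genes that rose (20.8%) was below that of all genes. The median change of all 25 motile genes was 0.63, against 0.17 over all 19057 genes, with or without an adjusted p. Of the general class 3 rose and 3 fell out of 22, with a median of -0.04. Of the 15 motile genes that rose in ESC-OB, 14 were tested in iPSC-OB and 5 of those rose (35.7%), which are all the motile genes that rose in iPSC-OB. Of all genes that rose in ESC-OB and were tested in iPSC-OB, 56% rose there. A positive change in iPSC-OB was found for 13 of the 15 (86.7%), and for 86% of all genes that rose in ESC-OB.

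**Figure D1:**
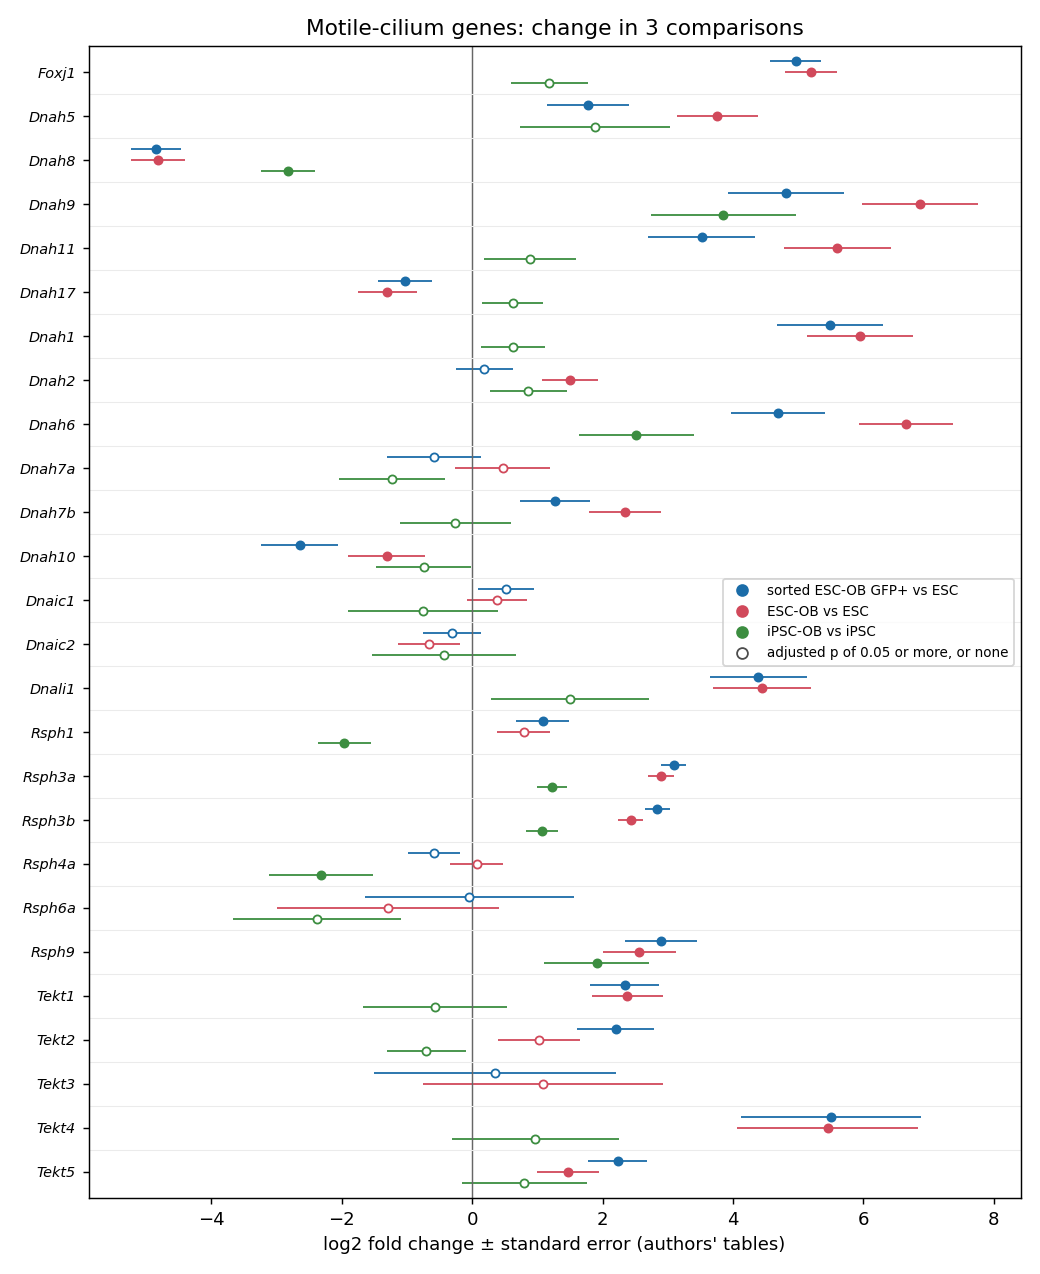
The authors' log2 fold change of each motile-cilium gene (x axis, bars are standard errors) in sorted ESC-OB GFP+ against ESC (blue), ESC-OB against ESC (red) and iPSC-OB against iPSC (green), with filled points for an adjusted p under 0.05. Foxj1, Dnah1, Dnah6 and Dnah9 lie at 4.69 or more in both ESC comparisons, Dnah8 lies at -4.85 and -4.82, and the green points sit nearer to 0 for most genes.

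Foxj1, the regulator of the motile programme, was estimated at 23.2 CPM in sorted GFP+ and 27.4 in ESC-OB, against 0.744 in ESC, and at 5.17 CPM in iPSC-OB against 2.27 in iPSC. The authors' log2 change was 4.96 ± 0.39 in sorted GFP+ (adjusted p = 2.16e-35) and 5.20 ± 0.40 in ESC-OB (adjusted p = 3.76e-38). In iPSC-OB it was 1.18 ± 0.59 with an adjusted p of 0.0811, which does not pass. Per kb of exon, Foxj1 in ESC-OB stood at 10.4 CPM, above every dynein heavy chain and every tektin there and below Rsph3a at 15.2 CPM per kb.

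The outer-arm heavy chains, the large motor subunits that drive the beat, split by the kind of axoneme they are known from. Dnah5, Dnah9 and Dnah11, the chains of respiratory cilia, rose in both ESC comparisons. Dnah9 was at 3.10 CPM in sorted GFP+ and 12.8 in ESC-OB, against 0.110 in ESC, a level that rests on an estimated 3.05 reads. Its log2 change in the authors' tables was 4.82 ± 0.89 in sorted GFP+, 6.87 ± 0.89 in ESC-OB and, with 2.10 CPM in iPSC-OB against 0.145 in iPSC, 3.85 ± 1.11 in iPSC-OB, and all of these passed. Dnah11 changed by 3.52 ± 0.82 and 5.60 ± 0.82 and Dnah5 by 1.78 ± 0.63 and 3.76 ± 0.62 in sorted GFP+ and ESC-OB. In iPSC-OB the authors' table gave Dnah11 0.89 ± 0.71 and Dnah5 1.88 ± 1.15, neither past the threshold.

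Dnah8 and Dnah17, known as outer-arm chains of the sperm tail, fell in both ESC comparisons. Dnah8 was the most abundant heavy chain of the ESC, at 56.2 CPM or 3.31 CPM per kb, and was at 1.95 CPM in sorted GFP+ and 1.99 in ESC-OB. Its authors' log2 change was -4.85 ± 0.38 in sorted GFP+ (28.8-fold lower) and -4.82 ± 0.41 in ESC-OB, and it was also lower in iPSC-OB, at 1.84 CPM against 13.0 in iPSC and -2.82 ± 0.41 (7.07-fold lower). Dnah17 fell in sorted GFP+ (-1.03 ± 0.41) and ESC-OB (-1.30 ± 0.45), and its 0.62 ± 0.47 in iPSC-OB did not pass. Male germ cell markers with an adjusted p mostly fell: in the authors' tables, 6 of 10 fell and 0 rose in sorted GFP+, 6 of 9 fell and 1 rose in ESC-OB, and 5 of 8 fell and 0 rose in iPSC-OB. Of all genes, 32.4%, 31.0% and 23.1% fell in the same order. In ESC-OB against ESC, 7 of the 14 markers lay under 3 reads in ESC-OB or ESC. The list median was -1.43, -1.79 and -1.33 as fitted, and -1.41, 0.07 and -1.33 with low levels raised to 3 reads. The markers' summed level was 97.5 CPM in sorted GFP+ and 96.2 in ESC-OB, against 396 in ESC, and 185 CPM in iPSC-OB against 338 in iPSC. Dazl, an RNA-binding protein of germ cells, was at 0.0651 CPM in sorted GFP+ and 0.0305 in ESC-OB, the ESC-OB value being under the level of 3 reads, against 26.1 in ESC. Whether these markers and Dnah8 share cells was not tested.

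The inner-arm heavy chains shape the bend. Dnah6 gave the largest level of any heavy chain in ESC-OB, 20.6 CPM or 1.62 CPM per kb, with 5.26 CPM in sorted GFP+ and 0.203 in ESC. Its log2 change in the authors' tables was 4.69 ± 0.72 in sorted GFP+, 6.66 ± 0.72 in ESC-OB and 2.52 ± 0.88 in iPSC-OB, with 2.74 CPM in iPSC-OB against 0.477 in iPSC. Dnah1 changed by 5.49 ± 0.81 in sorted GFP+ and 5.95 ± 0.81 in ESC-OB, at 6.09 and 8.43 CPM against 0.136 CPM in ESC, about 3.78 estimated reads. In the iPSC table Dnah1 was already at 4.09 CPM in iPSC, against which iPSC-OB had 6.32 CPM, and 0.63 ± 0.49 did not pass. Dnah2, a chain of the double-headed inner arm, rose in ESC-OB (1.50 ± 0.43) and did not pass in sorted GFP+ (0.19 ± 0.43) or iPSC-OB (0.86 ± 0.59). Its partner in that arm, Dnah10, fell in sorted GFP+ (-2.64 ± 0.59) and ESC-OB (-1.31 ± 0.59) and did not pass in iPSC-OB (-0.74 ± 0.73).

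Dnah7b rose in sorted GFP+ (1.27 ± 0.54, adjusted p = 0.0689 once re-centred on the median gene) and ESC-OB (2.34 ± 0.55), and its copy Dnah7a passed in no comparison, with log2 changes of -0.58 ± 0.72, 0.47 ± 0.73 and -1.23 ± 0.81 in sorted GFP+, ESC-OB and iPSC-OB. These copies share 29.4% of the 50-base words of Dnah7a, so how the authors' counting divided their reads is uncertain. The smaller arm subunits moved unequally. Dnali1, the light intermediate chain of the inner arm, was at 3.71 CPM in sorted GFP+ and 3.88 in ESC-OB against 0.177 in ESC, with log2 changes of 4.39 ± 0.74 and 4.45 ± 0.75, and at 0.340 CPM in iPSC-OB against 0.120 in iPSC (1.50 ± 1.21, not passing). Dnaic1 and Dnaic2, the outer-arm intermediate chains that any outer arm needs, passed in none of the authors' comparisons. Dnaic1 had log2 changes of 0.52 ± 0.43, 0.38 ± 0.46 and -0.76 ± 1.15, and Dnaic2 -0.31 ± 0.44, -0.66 ± 0.48 and -0.43 ± 1.11, in sorted GFP+, ESC-OB and iPSC-OB.

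Radial spoke genes rose where they passed in the ESC comparisons. Rsph3a, a spoke stalk gene, was at 38.7 CPM in sorted GFP+ and 33.9 in ESC-OB against 4.55 in ESC, and at 26.0 CPM in iPSC-OB against 11.1 in iPSC. In the authors' tables it rose in all 3 comparisons, by 3.09 ± 0.19, 2.90 ± 0.20 and 1.23 ± 0.23. Rsph3b rose beside it, by 2.84 ± 0.19, 2.43 ± 0.19 and 1.07 ± 0.25, but 54.4% of the 50-base words of Rsph3a also occur in Rsph3b, so the pair may count as 1 measurement. Rsph9, a spoke head gene, rose by 2.90 ± 0.55, 2.56 ± 0.56 and 1.91 ± 0.81. The other spoke head genes were less uniform. Rsph1 rose in sorted GFP+ (1.08 ± 0.40), did not pass in ESC-OB (0.79 ± 0.41) and fell in iPSC-OB (-1.96 ± 0.41), at 1.70 CPM in iPSC-OB against 6.60 in iPSC. Rsph4a did not pass in sorted GFP+ (-0.58 ± 0.40) or ESC-OB (0.07 ± 0.41) and fell in iPSC-OB (-2.32 ± 0.80), at 0.517 CPM against 2.58 in iPSC. Rsph6a, known from sperm, had few reads, passed nowhere and gave -0.04 ± 1.60, -1.29 ± 1.70 and -2.38 ± 1.29.

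Of the 4 tektins with an adjusted p, 4 rose in sorted GFP+ and 3 in ESC-OB, where 39.1% and 38.6% of all genes rose. In iPSC-OB 0 of 3 passed, where 26.1% of all genes rose and 23.1% fell. None of these tektins passed the test of iPSC-OB minus ESC-OB. Tekt1 changed by 2.34 ± 0.53 in sorted GFP+ and 2.38 ± 0.54 in ESC-OB, at 3.85 and 3.95 CPM against 0.758 CPM in ESC, and by -0.57 ± 1.11 in iPSC-OB, which did not pass. Tekt5 rose in sorted GFP+ (2.23 ± 0.45) and ESC-OB (1.47 ± 0.47) in the authors' tables, and did not pass in iPSC-OB (0.80 ± 0.96). Tekt2 rose in sorted GFP+ (2.20 ± 0.59), and neither its 1.03 ± 0.63 in ESC-OB nor its -0.70 ± 0.61 in iPSC-OB passed. Of the annotated exons of Tekt2, 25.7% overlap a gene on the other strand, and the sources used here do not say whether the authors' counts used strand. Tekt4 was at 1.36 CPM in sorted GFP+ and 1.31 in ESC-OB, while ESC lay under the level of 3 reads, so it was at least 12.5-fold higher in sorted GFP+ and at least 12.1-fold higher in ESC-OB than 3 reads over the ESC libraries. It has no adjusted p in the iPSC table. Tekt3 had 1 read in a sorted GFP+ library, 1 in an ESC-OB library and 0 in ESC, has no adjusted p, and is not in the iPSC table.

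**Figure D2:**
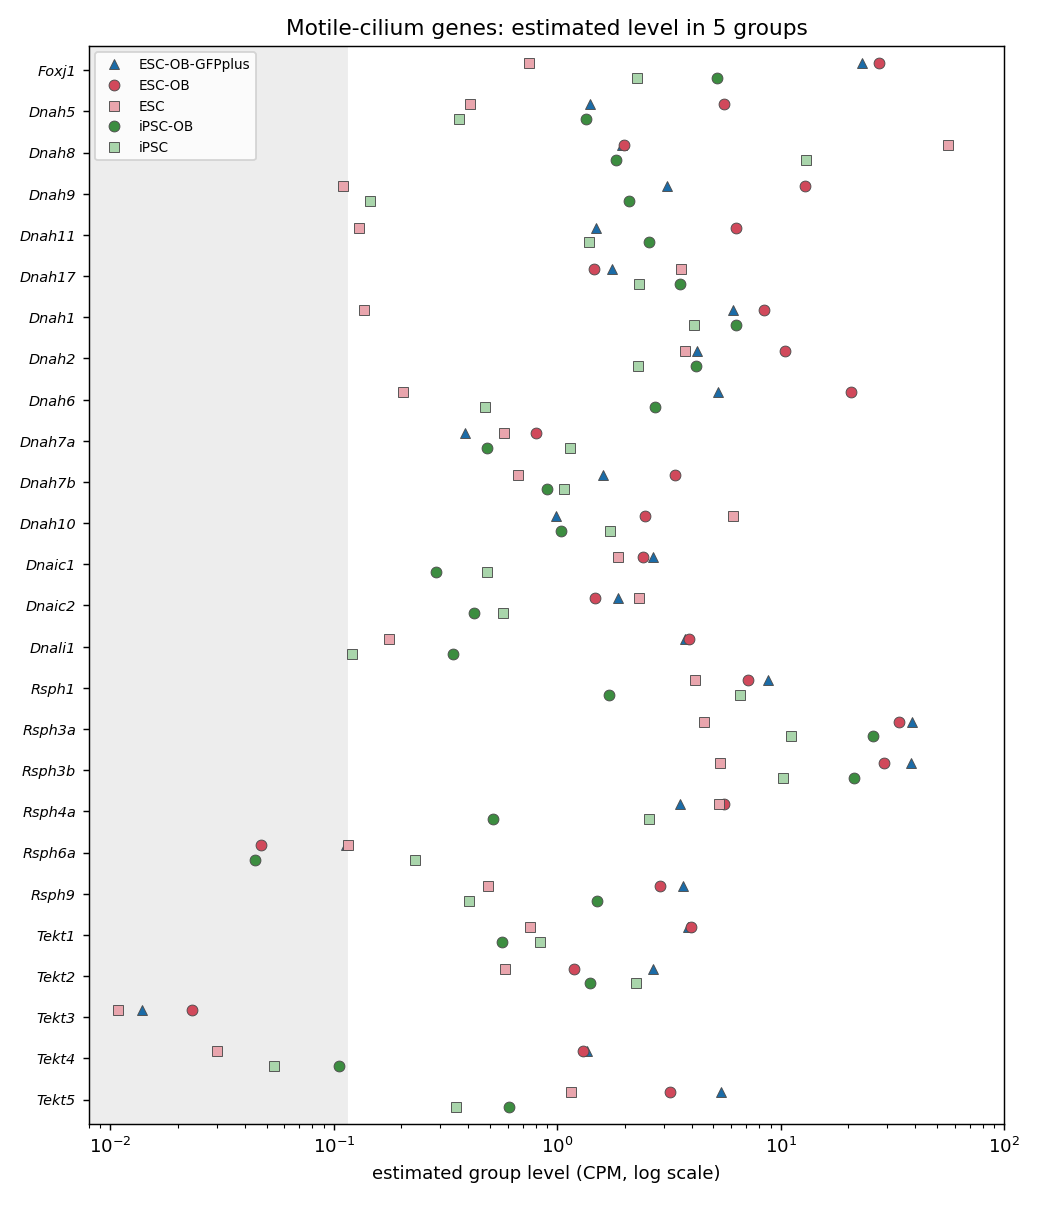
Estimated level of each motile-cilium gene in CPM (x axis, log scale) in sorted ESC-OB GFP+ (triangles), ESC-OB (red circles), ESC (pink squares), iPSC-OB (green circles) and iPSC (pale green squares), where grey shading marks levels under 3 reads over the iPSC-OB group (0.114 CPM), the highest such level. In ESC, Dnah1, Dnah9 and Dnah11 lie at 0.110 to 0.136 CPM at the edge of the shading, whereas Dnah8 stands at 56.2 CPM, and the Tekt3 points are fitted from 2 reads.

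Intraflagellar transport genes were present in every group, including the stem cells: the lowest base mean of an Ift or Bbs gene was 45.4 in the ESC fit, against 0.18 for the motile class. IFT-A is the complex of retrograde traffic. Ift43, one of its subunits, rose in all 3 comparisons, by 3.36 ± 0.30, 2.24 ± 0.30 and 0.70 ± 0.30 in sorted GFP+, ESC-OB and iPSC-OB, at 51.7 and 23.8 CPM against 5.03 in ESC, and 17 CPM in iPSC-OB against 10.4 in iPSC. Re-centred, its iPSC-OB call was lost (adjusted p = 0.0672). Ift122 rose by 0.48 ± 0.19 in sorted GFP+ and 0.54 ± 0.20 in ESC-OB, and its -0.22 ± 0.29 in iPSC-OB did not pass. Both calls of Ift122 were lost on re-centring (adjusted p = 0.197 and 0.105). Ift140 passed in none of the authors' comparisons, with -0.01 ± 0.19, 0.29 ± 0.20 and -0.32 ± 0.28.

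Of the 11 genes of IFT-B, the complex of anterograde traffic, 5 rose and 5 fell in sorted GFP+ (45.5% each, against 39.1% and 32.4% of all genes). In ESC-OB 3 rose and 3 fell (27.3% each, against 38.6% and 31.0%). In iPSC-OB 1 rose and 2 fell (9.09% and 18.2%, against 26.1% and 23.1%). Ift20, which also works at the Golgi, rose in all 3 authors' comparisons (1.72 ± 0.20, 0.94 ± 0.20 and 0.72 ± 0.26). Ift81 rose by 1.65 ± 0.25 in sorted GFP+ and 1.78 ± 0.25 in ESC-OB, while Ift74, its partner in binding tubulin, fell in all 3 comparisons (-0.97 ± 0.21, -0.72 ± 0.21 and -0.86 ± 0.26). Ift46 fell to 39.5 CPM in sorted GFP+ and 48.8 in ESC-OB, against 102 in ESC (-1.37 ± 0.14 and -1.07 ± 0.14). Ift52 fell in sorted GFP+ (-0.64 ± 0.13) and ESC-OB (-0.96 ± 0.14). Ift88, the gene of the classical polycystic kidney mutant, fell in sorted GFP+ (-0.99 ± 0.23) and iPSC-OB (-0.69 ± 0.26), and its 0.18 ± 0.23 in ESC-OB did not pass. Ift80 fell in sorted GFP+ (-1.40 ± 0.20), and neither its -0.25 ± 0.20 in ESC-OB, which passed once re-centred (adjusted p = 0.045), nor its -0.24 ± 0.21 in iPSC-OB passed in the authors' tables. Ift22, Ift27 and Ift57 rose in sorted GFP+ and passed in neither culture comparison. Re-centred, Ift22 (adjusted p = 0.297) and Ift57 (0.116) no longer passed in sorted GFP+, and Ift22 and Ift27 fell in ESC-OB (0.0234 and 0.0117). Ift172 rose in ESC-OB (0.86 ± 0.20), with 0.36 ± 0.20 in sorted GFP+ and 0.08 ± 0.20 in iPSC-OB.

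Among BBSome subunits Bbs2 led, at 18.8 CPM in sorted GFP+ and 27.8 in ESC-OB against 2.52 in ESC, and at 12.6 CPM in iPSC-OB against 3.22 in iPSC. The authors' log2 changes were 2.90 ± 0.27, 3.47 ± 0.27 and 1.97 ± 0.34, and it was the general member with the largest change in ESC-OB and iPSC-OB. Bbs1, which binds cargo receptors, rose in sorted GFP+ (0.85 ± 0.30) and ESC-OB (1.41 ± 0.30). Bbs4 fell in all 3 comparisons (-0.50 ± 0.19, -0.64 ± 0.20 and -0.66 ± 0.27). Bbs5 rose (1.28 ± 0.26) and Bbs9 fell (-0.87 ± 0.21) in sorted GFP+. Bbs10 and Bbs12, chaperonin-like proteins needed to assemble the BBSome, fell in sorted GFP+ (-1.28 ± 0.33 and -1.26 ± 0.36) and ESC-OB (-1.05 ± 0.35 and -1.11 ± 0.38) and passed neither test in the authors' iPSC table.

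**Figure D3:**
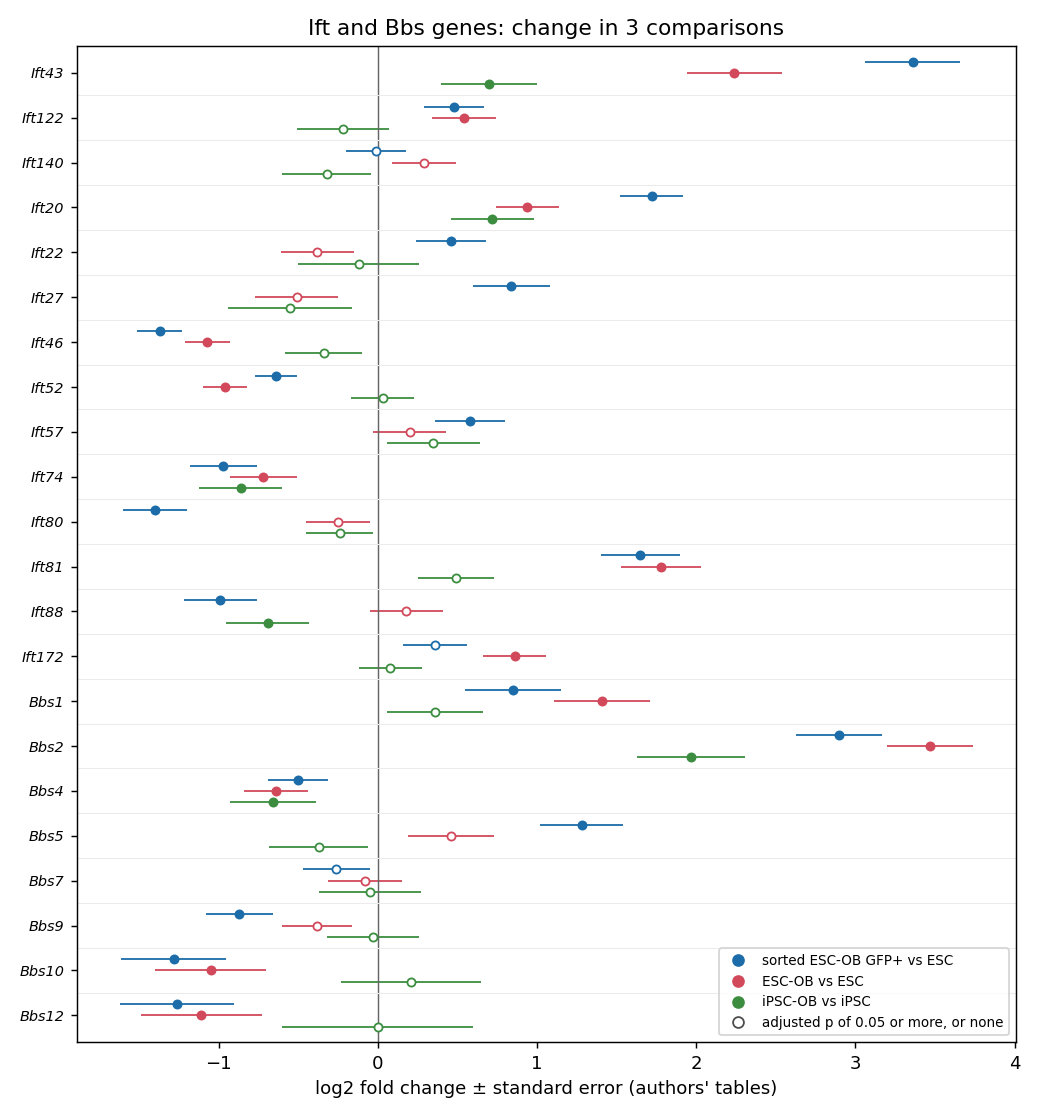
The authors' log2 fold change of each Ift and Bbs gene (x axis, bars are standard errors) in sorted ESC-OB GFP+ against ESC (blue), ESC-OB against ESC (red) and iPSC-OB against iPSC (green), with filled points for an adjusted p under 0.05. Ift43 and Bbs2 reach 3.36 and 3.47, and subunits of the same complex, such as Ift81 and Ift74, lie on opposite sides of 0.

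Sorted and unsorted cultures share the ESC libraries, so their changes were compared by the difference of the log2 changes over the root of the summed squared errors, with a normal two-sided p adjusted by the Benjamini-Hochberg method over 19781 genes. Over all genes 10.7% were higher and 12.1% lower in the sorted cells. None of the 26 motile genes differed by this test, and 2 (Dnah2 and Dnah5, both lower in sorted GFP+) had an unadjusted p under 0.05. The shared libraries make this error an upper estimate. With the error that holds if the 3 groups vary alike, 4 motile genes were lower in sorted GFP+: Dnah2 (-1.31), Dnah5 (-1.99), Dnah6 (-1.97) and Dnah11 (-2.08). The share of all genes under that error was not counted, so these 4, all heavy chains, cannot be set against it. Of the general class 4 were higher in the sorted cells, Ift27 (1.35 ± 0.36, adjusted p = 0.00135), Ift43 (1.12 ± 0.43), Ift22 (0.83 ± 0.32) and Ift20 (0.78 ± 0.28), and 2 were lower, Ift80 (-1.15 ± 0.29, adjusted p = 0.000547) and Ift88 (-1.17 ± 0.32, adjusted p = 0.00233).

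Transcript length moved with this difference. The heavy chains have 12.2 to 17 kb of exon, and 10 of the 11 were lower in sorted GFP+ than in ESC-OB, with a median difference of -1.31. Of 447 genes of any kind with exons of 10 kb or more and a base mean of 10 or more, 90.6% were lower as well, with a median of -1.22. Across the 48 members Spearman's rho between exon length and the difference was -0.71, and across 14073 genes it was -0.50. Across those genes it was 0.12 for ESC-OB against ESC and -0.07 for sorted GFP+ against ESC. When each gene was set against the median of genes of like exon length, Ift80 (-1.14, adjusted p = 0.000984) and Ift88 (-1.37, adjusted p = 0.00035) were still lower in sorted GFP+, while Ift20 (0.11), Ift22 (0.68), Ift27 (0.68) and Ift43 (0.55) no longer passed. Dnah2 (-0.12), Dnah5 (-0.8), Dnah6 (-0.78) and Dnah11 (-0.89), here with the summed errors, did not pass. Of all 18743 genes with a length, 1112 were higher and 1621 lower after this centring. That comparison was chosen after the values were seen. Per the labels a second library kit served for very small amounts of RNA, and which samples it served is not stated there, so its part in the length trend was not tested. The 45S ribosomal RNA gene Rn45s also stood apart in the sorted cells: its log2 change in the authors' deposited tables was -4.13 ± 0.31 in sorted GFP+, against 0.27 ± 0.31 in ESC-OB and -0.51 ± 0.47 in iPSC-OB, and its part in the trend was not tested. Lengths are from GENCODE M21 and not from the authors' annotation.

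**Figure D4:**
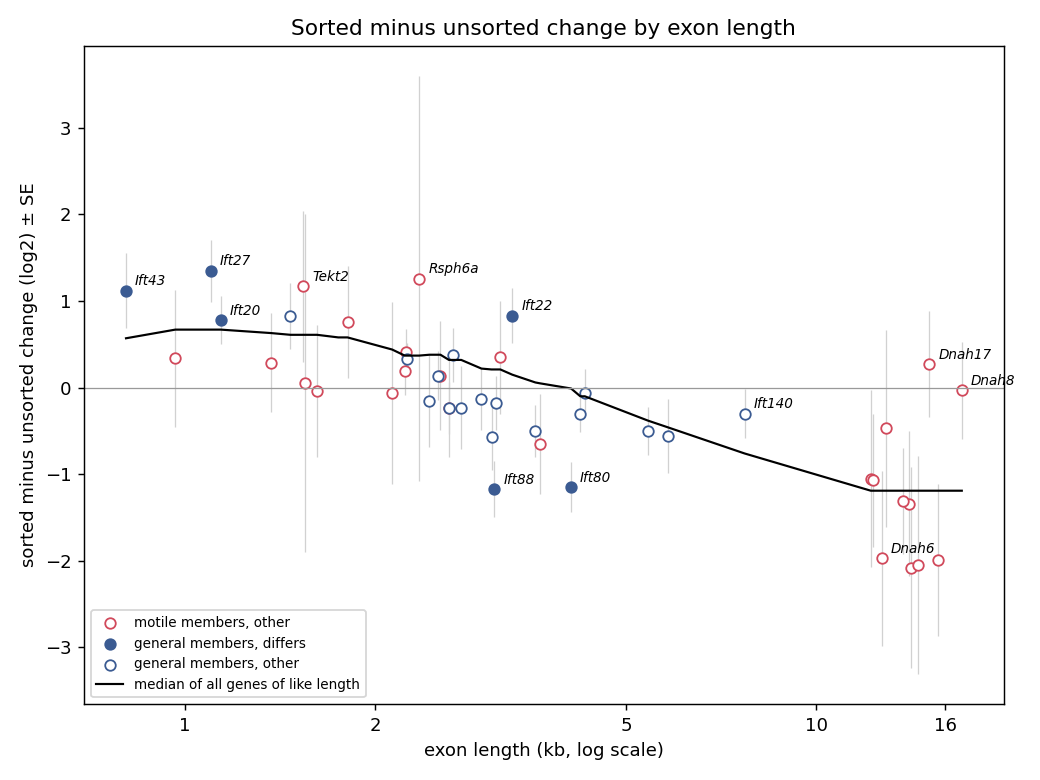
Sorted minus unsorted log2 change of each member (y axis, bars are standard errors) against its exon length in kb (x axis, log scale), with the median of all genes of like length as a black line, red for motile and blue for general members, and Tekt3 left out for its 2 reads. The line runs from 0.57 at the shortest member to -1.19 at the heavy chains, most heavy chains lie near or below it, and Ift80 and Ift88 lie below it by 1.14 and 1.37.

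Whether stem cells of different origin made the same change was read from the iPSC-OB change minus the ESC-OB change, from separate libraries and over 18632 shared genes. Of these, 11.0% had a higher and 17.2% a lower change in iPSC-OB. Higher and lower refer here to the change and not to the level in the cultures. Of 25 motile genes 9 were lower and 2 higher, and the median difference was -1.72, against -0.07 over all genes. Of 22 general genes 6 were lower and 2 higher, with a median of -0.09. Once the changes were re-centred, 3 general genes were lower and 3 higher, and Bbs1, Ift172 and Ift88 no longer passed. The share of all genes was not counted for the re-centred difference, so these counts cannot be set against it. The stronger shrinkage of the iPSC table works towards smaller changes there for genes with few reads, and its part in these differences was not tested.

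Among genes that passed, the greatest differences were in Dnah1 (-5.33 ± 0.95, adjusted p = 3.25e-07), Dnah11 (-4.71 ± 1.09, adjusted p = 0.000137), Dnah6 (-4.14 ± 1.14, adjusted p = 0.00179) and Foxj1 (-4.01 ± 0.71, adjusted p = 2.61e-07). Tekt4 had -4.48 ± 1.89 and did not pass (adjusted p = 0.0603). Dnah6 was at 2.74 CPM in iPSC-OB and 20.6 in ESC-OB, with 0.477 CPM in iPSC and 0.203 in ESC. Foxj1 was at 5.17 CPM in iPSC-OB and 27.4 in ESC-OB, with 2.27 CPM in iPSC and 0.744 in ESC. For Dnah1 the cultures were at 6.32 CPM in iPSC-OB and 8.43 in ESC-OB, whereas the stem cells were at 4.09 CPM in iPSC and 0.136 in ESC. Dnah11 was at 2.58 CPM in iPSC-OB and 6.29 in ESC-OB, with 1.39 CPM in iPSC and 0.129 in ESC. Levels set across the tables were normalised separately and carry no test.

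Among the spokes, Rsph1 (-2.75 ± 0.57, adjusted p = 2.15e-05) and Rsph4a (-2.39 ± 0.90) had the lower change in iPSC-OB, where both fell and neither passed in ESC-OB. Rsph3a (-1.67 ± 0.30, adjusted p = 6.58e-07) and Rsph3b (-1.36 ± 0.32) rose in both and by less in iPSC-OB, and Dnah7b (-2.60 ± 1.01) rose in ESC-OB and did not pass in iPSC-OB. Dnah8 (2 ± 0.58) and Dnah17 (1.92 ± 0.65) had the higher change in iPSC-OB. Dnah9 did not pass at -3.02 ± 1.42 (adjusted p = 0.0992), nor did Dnali1 (-2.95 ± 1.42) or Tekt1 (-2.95 ± 1.23). In the general class Ift43 (-1.54 ± 0.43), Bbs2 (-1.50 ± 0.44), Ift81 (-1.29 ± 0.35), Bbs1 (-1.05 ± 0.43), Ift88 (-0.86 ± 0.35) and Ift172 (-0.78 ± 0.28) had the lower change in iPSC-OB, and Ift52 (1.00 ± 0.25) and Ift46 (0.73 ± 0.28) the higher change. Across the members Spearman's rho between the changes was 0.70 (n = 47), and 0.69 across all 18632 genes.

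**Figure D5:**
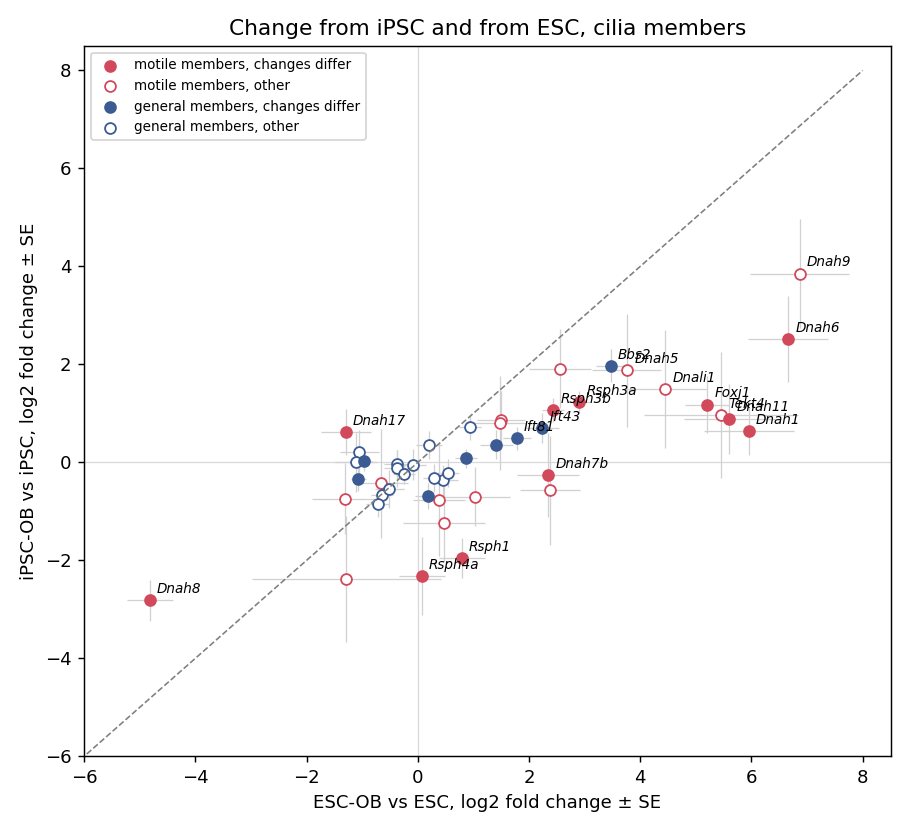
The authors' log2 change of each member in iPSC-OB against iPSC (y axis) and in ESC-OB against ESC (x axis), with standard errors, the line of equal change (dashed), red for motile and blue for general members, and filled points where the changes differ at an adjusted p under 0.05. Dnah1, Dnah11 and Foxj1 lie at 5.20 to 5.95 on the x axis and at 0.63 to 1.18 on the y axis, and Rsph1 and Rsph4a lie near 0 on the x axis and at -1.96 and -2.32 on the y axis.

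Other genes of the same structures were read from lists. Over all genes tested, 39.1% rose and 32.4% fell in sorted GFP+, 38.6% and 31.0% in ESC-OB, and 26.1% and 23.1% in iPSC-OB. Of the other axoneme and docking genes (45 in the ESC tables), 30 rose and 6 fell out of 44 tested in sorted GFP+, 31 rose and 3 fell in ESC-OB, and 4 rose and 5 fell of 42 in iPSC-OB. In the difference between the cell sources 18 of 44 had a lower and 2 a higher change in iPSC-OB, with a median of -2.46. Of all genes, 17.2% had a lower and 11.0% a higher change there, with a median of -0.07. Tppp3 rose by 3.55 ± 0.26 in sorted GFP+ and 3.16 ± 0.26 in ESC-OB, and its 0.10 ± 0.70 in iPSC-OB did not pass. Ccdc40, of the ruler that spaces arms and spokes, rose in sorted GFP+ (0.87 ± 0.28) and ESC-OB (0.65 ± 0.29) and fell in iPSC-OB (-3.11 ± 0.57). Hydin, of the central pair, went the other way from most of the list and fell in sorted GFP+ (-4.33 ± 0.32) and ESC-OB (-1.72 ± 0.30). Of the dynein assembly factors, 5 of 9 rose in both ESC comparisons, with 2 falling in sorted GFP+ and 3 in ESC-OB, and 1 rose and 3 fell in iPSC-OB. Dnaaf1 rose in all 3 authors' comparisons (2.39 ± 0.44, 2.52 ± 0.45 and 2.83 ± 0.93).

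Of 18 regulators of multiciliated cells 4 rose (22.2%) and 10 fell (55.6%) in sorted GFP+, 4 (22.2%) and 9 (50%) in ESC-OB, and 1 (5.56%) and 10 (55.6%) in iPSC-OB, so the share that rose was below that of all genes in each comparison. Several of them also act in dividing cells, as E2f4, Plk4 and Cep152 do. Mcidas, a switch of multiciliated fate, was at 2.26 CPM in sorted GFP+ and 0.436 in ESC-OB and under the level of 3 reads in ESC, with authors' log2 changes of 4.87 ± 1.49 (adjusted p = 0.00183) and 2.49 ± 1.52 (adjusted p = 0.132). Ccno, a cyclin of centriole amplification, rose in sorted GFP+ (1.81 ± 0.41) and ESC-OB (1.37 ± 0.43) and fell in iPSC-OB (-2.95 ± 0.55). Myb, which acts early in that lineage, fell in all 3 comparisons (-5.04 ± 0.70, -4.25 ± 0.73 and -4.91 ± 0.64), and Trp73 fell in all 3 (-2.48 ± 0.24, -3.24 ± 0.32 and -2.26 ± 0.81). Of the RFX factors, Rfx2 fell in all 3 (-2.47 ± 0.23, -2.46 ± 0.24 and -1.80 ± 0.28), Rfx4 rose in all 3 (2.66 ± 0.59, 4.13 ± 0.59 and 2.63 ± 0.76), and Rfx3 rose in ESC-OB alone (1.13 ± 0.37).

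Of 26 partners of IFT and the BBSome with other symbols, 9 rose (34.6%) and 7 fell (26.9%) in sorted GFP+, 12 (46.2%) and 7 (26.9%) in ESC-OB, and 3 (11.5%) and 6 (23.1%) in iPSC-OB. Hspb11 (Ift25), the partner of Ift27, rose by 3.42 ± 0.41 in sorted GFP+ and 3.51 ± 0.41 in ESC-OB. Of 35 transition zone and ciliary membrane genes 16 rose (45.7%) and 13 fell (37.1%) in sorted GFP+, 14 (40%) and 10 (28.6%) in ESC-OB, and 7 (20%) and 8 (22.9%) in iPSC-OB, shares near those of all genes. Anks6 rose by 4.07 ± 0.42 in sorted GFP+ and 3.11 ± 0.43 in ESC-OB, and Ofd1, of the basal body, fell there (-2.55 ± 0.15 and -2.03 ± 0.16). Of 16 genes of cilium disassembly and cell division, 13 fell and 2 rose in sorted GFP+, 14 fell and 2 rose in ESC-OB, and 8 fell and 1 rose in iPSC-OB. Nedd9, the scaffold that turns on Aurka at the cilium, rose in all 3 (6.09 ± 0.31, 5.86 ± 0.31 and 3.70 ± 0.31), while Mki67 fell in sorted GFP+ (-5.21 ± 0.17) and ESC-OB (-2.81 ± 0.17), and its -0.52 ± 0.39 in iPSC-OB did not pass. The change of this list was higher in iPSC-OB than in ESC-OB for 12 of 16 genes and lower for 2, with a median of 2.24. Of all genes, 11.0% had a higher and 17.2% a lower change, with a median of -0.07.

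Markers of epithelia that carry motile cilia were read beside the motile class. Over all genes tested, 39.1% rose and 32.4% fell in sorted GFP+, 38.6% and 31.0% in ESC-OB, and 26.1% and 23.1% in iPSC-OB. Of the airway and secretory markers, 20 of 23 rose and 1 fell in both ESC comparisons, and 14 of 22 rose and 2 fell in iPSC-OB. Their summed level was 7009 CPM in sorted GFP+ and 3622 in ESC-OB, against 535 in ESC, and 1933 CPM in iPSC-OB against 1271 in iPSC. Scgb1a1, the club cell secretoglobin, was at 115 CPM in sorted GFP+ and 107 in ESC-OB against 0.161 in ESC, and at 0.200 CPM in iPSC-OB, with iPSC under the level of 3 reads. Cyp2f2, also of club cells, was at 1245 CPM in sorted GFP+ and 535 in ESC-OB and under that level in ESC, and at 31.1 CPM in iPSC-OB against 0.200 in iPSC. In the iPSC-OB minus ESC-OB difference 14 of 22 of these markers were lower and 0 higher, with a median of -4.25. Of all genes, 17.2% were lower and 11.0% higher in that difference, with a median of -0.07. Of 10 ependyma and choroid plexus markers, 6 rose and 3 fell in sorted GFP+, 5 and 3 in ESC-OB, and 4 and 3 in iPSC-OB, with sums of 291 and 364 CPM in sorted GFP+ and ESC-OB against 190 in ESC, and 417 CPM in iPSC-OB against 174 in iPSC. Ttr, of the choroid plexus, was at 119 CPM in sorted GFP+, 74.2 in ESC-OB and 108 in iPSC-OB, under the level of 3 reads in ESC and at 1.12 CPM in iPSC. The part of such cells in the motile result was not tested.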

How the data were processed

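The values are the authors' own comparisons, and columns of values per single sample numbered 0. Tools named in the submitters' processing notes are DESeq2, STAR (2.4.2a) and R (3.2.2), with mm9 as the mouse build and no roles or filters. Per the file headers, the authors give each gene a base mean (a signal: counts divided by size factors, averaged over the libraries of a fit). Per the file headers, the deposited log2 fold changes come with a standard error on the log2 scale, and the deposited score is their ratio. The p-value and its adjusted form are the authors', as deposited, with no adjusted p for 1193 (sorted GFP+), 1573 (ESC-OB) and 1478 (iPSC-OB) genes. Both ESC tables come from 1 fit, and the iPSC table from another.

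With Python 3.11.15, pandas 2.3.3, numpy 2.4.6 and SciPy 1.17.1, library depths were solved from the steps of base means under 1 (all 2040 and 1456 of them explained within 3e-07) and group levels from base means and fold changes. Differences between changes used the root of the summed squared standard errors, a two-sided normal p and Benjamini-Hochberg adjustment over the whole table. The depth, difference and motif steps were tested on simulated data. The members and gene lists were chosen with earlier results of these data known. Every motile member is named, of Ift and Bbs members those with the 5 greatest changes per comparison and a few fixed examples, and of each list up to 3 genes per comparison, by size of change, past an adjusted p of 0.05. Alpl, Bglap, Cep152, E2f4, Hydin, Plk4, Rfx2, Rfx3, Scgb1a1, Tppp3 and the further Ift and Bbs genes were chosen after their values were seen. Alternatives tried were an adjusted p of 0.01, a log2 change of at least 1, a base mean of at least 10, adjustment over every gene, re-centring, other symbols, another standard error, shorter promoter windows and centring on exon length. A result on 1 further gene of the lists is not reported here.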

Additional observations from a re-analysis of the deposited data

Results flagged for a closer look

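These 19 genes were flagged because their change in iPSC-OB against iPSC differed from their change in ESC-OB against ESC. The test was of the difference itself, at an adjusted p under 0.05 over 18632 genes. Of the 47 members in that test, 8.51% had a higher and 31.9% a lower change in iPSC-OB, against 11.0% and 17.2% of all genes. Each value is the iPSC-OB change minus the ESC-OB change on the log2 scale, with its standard error. It compares changes and not levels of the cultures: Dnah8 was at 1.84 CPM in iPSC-OB and 1.99 in ESC-OB, with 13 CPM in iPSC and 56.2 in ESC.

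The motile genes with the lower change in iPSC-OB were Dnah1 (-5.33 ± 0.95), Dnah11 (-4.71 ± 1.09), Dnah6 (-4.14 ± 1.14), Foxj1 (-4.01 ± 0.71), Rsph1 (-2.75 ± 0.57), Dnah7b (-2.60 ± 1.01), Rsph4a (-2.39 ± 0.90), Rsph3a (-1.67 ± 0.30) and Rsph3b (-1.36 ± 0.32). Those with the higher change in iPSC-OB were Dnah8 (2 ± 0.58) and Dnah17 (1.92 ± 0.65). Among general genes, the change in iPSC-OB was lower for Ift43 (-1.54 ± 0.43), Bbs2 (-1.5 ± 0.44), Ift81 (-1.29 ± 0.35), Bbs1 (-1.05 ± 0.43), Ift88 (-0.86 ± 0.35) and Ift172 (-0.78 ± 0.28), and higher for Ift52 (1 ± 0.25) and Ift46 (0.73 ± 0.28). The least certain of these was Bbs1, with an adjusted p of 0.048. Once the changes were re-centred on the median gene, Bbs1, Ift172 and Ift88 no longer passed.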

How the results depend on the processing

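Counts of motile genes that changed kept within 1.5 times of the reported ones in the 3 authors' comparisons under every alternative run. General genes changed by a log2 of at least 1 numbered 9 in sorted GFP+ (19 with no minimum), 7 in ESC-OB (13) and 1 in iPSC-OB (6). With subunits under other symbols they numbered 24 in ESC-OB and 12 in iPSC-OB. At an adjusted p under 0.01, 2 general genes changed in iPSC-OB, 3 differed between sorted and unsorted (6 at 0.05) and 4 between iPSC-OB and ESC-OB (8 at 0.05). Under equal variance in the 3 groups, 4 motile genes differed between sorted and unsorted (0 with the summed errors), and Bbs5, Ift172 and Ift52 passed as well. No share of all genes was counted under that error. Centred on genes of like exon length, an alternative chosen after seeing the data, 2 of 22 general genes differed (6 before), both lower. Of all 18743 genes under that setting, 1621 were lower and 1112 higher. There the sign turned for Bbs4 (-0.24), Dnah1 (0.72), Dnah7a (0.14), Dnah7b (0.12), Dnah8 (1.16), Dnaic1 (-0.24), Ift122 (0.04), Ift140 (0.46), Ift52 (-0.05), Rsph1 (-0.34), Rsph3a (-0.18), Rsph9 (-0.33) and Tekt4 (-0.56), none of which had passed. Re-centred on the median gene, the sign turned for Dnah2 in sorted GFP+ (-0.02), Ift88 (-0.01) and Rsph4a (-0.12) in ESC-OB, Bbs12 (-0.06) and Ift52 (-0.03) in iPSC-OB, and Bbs4 (0.11) and Ift27 (0.09) in the iPSC-OB minus ESC-OB difference, and none of these had passed. With low levels raised to 3 reads, the median motile change in iPSC-OB was 0.62 (0.63 as fitted). In the 100 bases around the start, 0 member genes held the X-box in the spelling searched and 0 the forkhead core. Where a count or sign moved by re-centring, a stricter threshold or fewer bases, that follows from the construction of the alternative, and otherwise the cause was not tested. Re-centring ended the calls of Dnah7b, Ift122, Ift22 and Ift57 in sorted GFP+, Ift122 in ESC-OB, Ift43 in iPSC-OB, and Bbs1, Ift172 and Ift88 in the difference between cell sources, and added calls of Bbs7 in sorted GFP+ and of Bbs9, Ift22, Ift27 and Ift80 in ESC-OB, all lower, and of Bbs10 (higher) in that difference. Adjusted over every gene, Ift22 in sorted GFP+ no longer passed (0.0514). No paired analysis was possible because the tables hold no values per sample, and for the same reason no replicate could be left out, nor another count test or normalisation run. Genes under 3 reads in a group (Rsph6a, Tekt3, Tekt4) are limited by depth.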
